A study of Mus musculus with 10 samples.

Results

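This comparison covers listed 5-carboxylcytosine (5caC) sites in mouse embryonic stem cells labelled Tdg, grown in serum-2i or in serum. Its members are the entries of a deposited coverage table whose group label is serum-2i Tdg (689303 sites) or serum Tdg (374488 sites), together 1063791 of 1183229 entries in the table. A site is a single CG position, and its value is the mean coverage over the 2 technical replicates of the group. The whole study had 10 samples in 5 groups: wild-type (wt) and Tdg cells in each medium, and a control of Tet triple-knockout DNA, which is not analysed here. The question behind the comparison is where in the genome 5caC lies when the culture state differs, since the study describes its cultures as naive and primed pluripotency.

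Both Tdg groups were feeder-free cultures on gelatin in DMEM with 15% fetal bovine serum and 1000 units/ml of the cytokine LIF. The serum-2i medium also held 3 µM CHIR99021, which inhibits the kinase GSK3, and 1 µM PD0325901, which inhibits the kinase MEK. The labels give Tdg by gene name alone, so the kind of alteration and the number of clones are not stated in the sources used here. DNA came from whole cultures. The replicates are technical, and the table gives no value for either of them, so the spread between replicates or cultures is unknown and no p-value was computed.

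As background, 5caC is the last oxidation product in the pathway of active DNA demethylation. DNMT enzymes methylate cytosine at CGs, TET dioxygenases oxidise the methyl group stepwise to hydroxymethyl, formyl and carboxyl, and thymine DNA glycosylase (TDG) excises the last 2 forms so that base excision repair can restore an unmodified cytosine. In cells without TDG activity 5caC is not cleared in this way and becomes easier to detect. Promoters dense in CGs, called CpG islands, are mostly free of methylation in embryonic stem cells, and many of those at developmental genes carry Polycomb marks.

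Single promoters show where listed CGs lie, base by base. The ones printed were picked by their number of listed sites, so a difference between media at them is in part set by the choice. The promoters below are those with the most listed sites in either medium among autosomal promoter windows, and they are shown because they let the position of each listed CG be read directly. Sequences are RefSeq promoter windows of 300 bases (assembly GRCm38.p6, the same as mm10), from 250 bases before to 50 after a start, on the gene's strand. Capitals mark the CGs listed in the medium named on the line.

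Rbmxl2 encodes a testis RNA-binding protein. Its window at chr7:107209195-107209494 (plus strand) held 29 CGs, of which 12 were listed in serum and 0 in serum-2i.
Rbmxl2, serum: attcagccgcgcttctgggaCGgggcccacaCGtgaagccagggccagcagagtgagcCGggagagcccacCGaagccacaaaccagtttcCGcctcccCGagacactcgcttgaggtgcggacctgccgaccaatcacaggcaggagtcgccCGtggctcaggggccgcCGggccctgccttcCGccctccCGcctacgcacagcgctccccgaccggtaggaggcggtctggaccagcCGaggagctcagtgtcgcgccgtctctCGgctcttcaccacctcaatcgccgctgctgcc

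Prom2 encodes a membrane protein of the prominin family. Its window at chr2:127541368-127541667 (minus strand) held 15 CGs, of which 11 were listed in serum and 0 in serum-2i.
Prom2, serum: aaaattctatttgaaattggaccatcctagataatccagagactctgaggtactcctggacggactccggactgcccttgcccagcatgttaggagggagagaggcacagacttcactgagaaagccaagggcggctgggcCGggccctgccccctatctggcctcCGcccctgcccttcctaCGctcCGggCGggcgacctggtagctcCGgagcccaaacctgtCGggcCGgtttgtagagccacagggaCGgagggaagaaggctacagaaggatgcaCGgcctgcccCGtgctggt

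Acot11 encodes an acyl-CoA thioesterase. Its window at chr4:106804958-106805257 (minus strand) held 20 CGs, 13 of them listed in serum (summed coverage 310.5) and 2 in serum-2i (summed coverage 20.5), and the same 2 were listed in both.
Acot11, serum: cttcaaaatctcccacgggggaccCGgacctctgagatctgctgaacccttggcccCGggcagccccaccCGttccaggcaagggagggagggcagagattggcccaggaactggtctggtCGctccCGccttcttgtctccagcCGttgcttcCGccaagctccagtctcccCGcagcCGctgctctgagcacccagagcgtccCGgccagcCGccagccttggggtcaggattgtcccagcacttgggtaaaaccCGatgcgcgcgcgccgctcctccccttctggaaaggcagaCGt
Acot11, serum-2i: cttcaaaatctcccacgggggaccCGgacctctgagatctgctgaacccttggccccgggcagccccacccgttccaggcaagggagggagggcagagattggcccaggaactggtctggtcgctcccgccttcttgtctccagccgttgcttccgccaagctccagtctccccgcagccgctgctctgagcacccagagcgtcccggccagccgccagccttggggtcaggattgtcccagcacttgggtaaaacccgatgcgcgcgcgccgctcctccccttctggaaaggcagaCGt

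Rpl39l encodes a testis form of a ribosomal protein. Its window at chr16:10169978-10170277 (plus strand) had more sites in serum-2i, with 11 of 17 CGs listed there (summed coverage 244) and 2 in serum (74).
Rpl39l, serum-2i: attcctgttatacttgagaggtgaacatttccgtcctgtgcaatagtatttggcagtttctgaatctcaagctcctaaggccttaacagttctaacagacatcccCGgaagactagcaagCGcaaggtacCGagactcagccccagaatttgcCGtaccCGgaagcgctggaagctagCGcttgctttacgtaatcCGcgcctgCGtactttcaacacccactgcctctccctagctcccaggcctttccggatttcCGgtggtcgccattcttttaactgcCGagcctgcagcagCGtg
Rpl39l, serum: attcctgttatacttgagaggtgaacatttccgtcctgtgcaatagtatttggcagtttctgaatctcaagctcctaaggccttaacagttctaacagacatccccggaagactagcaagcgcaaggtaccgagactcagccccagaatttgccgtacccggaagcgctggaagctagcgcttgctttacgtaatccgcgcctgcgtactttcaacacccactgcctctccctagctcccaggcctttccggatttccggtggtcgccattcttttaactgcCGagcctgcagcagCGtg

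Brdt encodes a testis bromodomain protein. Its window at chr5:107330944-107331243 (plus strand) had 9 of 23 CGs listed in serum-2i (summed coverage 128.5) and 5 in serum (67), with 4 in both.
Brdt, serum-2i: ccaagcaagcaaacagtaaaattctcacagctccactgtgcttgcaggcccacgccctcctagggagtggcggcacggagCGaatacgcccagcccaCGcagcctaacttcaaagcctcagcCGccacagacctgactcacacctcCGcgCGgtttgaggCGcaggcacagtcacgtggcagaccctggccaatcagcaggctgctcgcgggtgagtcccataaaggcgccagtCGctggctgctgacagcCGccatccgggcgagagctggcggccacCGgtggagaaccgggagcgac
Brdt, serum: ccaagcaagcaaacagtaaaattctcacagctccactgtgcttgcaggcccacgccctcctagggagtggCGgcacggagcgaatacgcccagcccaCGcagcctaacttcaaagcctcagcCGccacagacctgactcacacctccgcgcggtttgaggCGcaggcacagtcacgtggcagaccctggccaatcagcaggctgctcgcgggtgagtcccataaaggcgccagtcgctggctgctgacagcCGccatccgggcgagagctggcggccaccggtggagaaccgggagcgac

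Sycp3 encodes a protein of the synaptonemal complex of meiosis. Its window at chr10:88459337-88459636 (plus strand) had the same 7 of 15 CGs listed in either medium, so 1 line serves both. Their summed coverage was 225 in serum-2i and 393 in serum.
Sycp3, both media: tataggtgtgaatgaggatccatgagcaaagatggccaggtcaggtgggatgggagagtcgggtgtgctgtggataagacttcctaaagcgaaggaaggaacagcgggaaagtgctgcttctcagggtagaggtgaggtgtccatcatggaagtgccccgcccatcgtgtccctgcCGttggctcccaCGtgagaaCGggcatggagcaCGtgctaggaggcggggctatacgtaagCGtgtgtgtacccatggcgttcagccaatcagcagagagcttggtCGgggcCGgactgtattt

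The remaining windows of the same ranking were AW011738 (11 sites in serum and 0 in serum-2i), Lbhd2 (10 and 4), Mamstr (10 and 6), Gpat2 (7 and 11), Arhgap30 (5 and 8) and Zfp560 (6 and 8). Of the windows with most sites in serum, Rbmxl2, Prom2 and AW011738 had none in the serum-2i list. The windows with most sites in serum-2i all had some in serum. The windows were ranked on these same counts, so this contrast is in part set by the choice. As shares of coverage (log2 ratio, defined below) none of the windows with most sites in serum-2i was called higher. The ratios were 0.999 for Rpl39l, 0.31 for Arhgap30, 0.22 for Brdt, 0.15 for Gpat2, 0.045 for Zfp560 and -1.53 for Sycp3. Acot11, Lbhd2 and Mamstr had -4.64, -3.63 and -2.17.

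The table was deeper in serum-2i, and this bears on the promoters above and on all that follows. Summed coverage was 12348368 in serum-2i and 7486660 in serum (1.65 times), and the number of sites was 1.84 times as high. Per site the media were alike, with a median coverage of 13.5 in serum-2i (quartiles 9.5 and 21) and 14.5 in serum (10 and 23.5). The number of reads per library is unknown, and neither group listed a site with a mean coverage under 6. A CG that is missing from a group therefore has an unknown value, not a value of 0. Features were compared by their share of the group's summed coverage, as a log2 ratio of serum-2i over serum, so 0 means an equal share and not an equal amount of 5caC. Each ratio has an exact conditional 95% interval that covers counting error only, and features are called higher or lower here when the difference in share reached 2-fold with an interval that left out equality. Sequencing reads after PCR without molecular identifiers are not independent molecules, and a read can cover several CGs, so these intervals are too narrow. On an alternative scale, the coverage at sites listed in both media, every log2 ratio of a feature was 0.71 higher, so a ratio less than 0.71 below 0 changes sign there.

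Most listed positions belonged to a single medium. Of 866054 CG positions listed in either group, 197737 (22.8%) were listed in both, 491566 (56.8%) in serum-2i alone and 176751 (20.4%) in serum alone. Sites listed in both media were the better covered ones, with a median of 18.5 in serum-2i and 17.5 in serum, against 12 for the sites of serum-2i alone and 12 for those of serum alone. They carried 64.2% of the coverage in serum but 39.2% of that in serum-2i. The share of serum sites also listed in serum-2i rose with coverage, from 36.1% at a coverage of 6 to 10 to 94.98% at 80 or more. For serum-2i sites the same share went from 14.9% to 82.7%. The shared positions are 1 set divided by lists of different length, so serum, the shorter list, has the higher share overall (52.8% against 28.7%). Even at a coverage of 40 to 80, 62.9% of serum-2i sites were listed in serum.

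**Figure D1:**
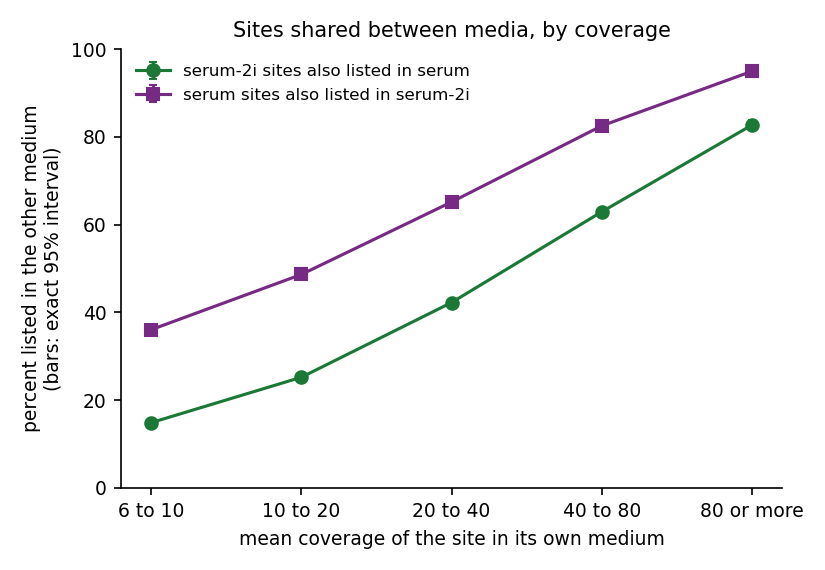
Percent of the sites of each Tdg group that were also listed in the other medium (y axis), by the site's mean coverage in its own medium (x axis, 5 classes). Bars are exact 95% binomial intervals, mostly smaller than the symbols. Serum sites go from 36.1% to 94.98% and serum-2i sites from 14.9% to 82.7%.

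At the 197737 shared positions the coverage itself was alike in the middle and scattered widely. The median log2 ratio of raw coverage was 0.052, with 5% of positions below -1.81 and 5% above 1.91. As a ratio of shares the median was -0.67, because serum-2i spread its coverage over more positions. Coverage was at least 2-fold higher in serum-2i at 40148 shared positions (20.3%) and at least 2-fold lower at 35660 (18.03%). Across these positions, which share libraries and local CG content, the coverage of the media had a Pearson correlation of 0.28 and a Spearman correlation of 0.25, given as a description.

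Sites found in serum-2i alone often lay far from any serum site. Their median distance to the nearest other serum-2i site was 102 bases, but to the nearest serum site it was 1589 bases, and 20.6% had no serum site within 10 kb. Sites found in serum alone had a serum-2i site at a median of 202 bases, and only 1.12% had none within 10 kb. Part of this contrast is set by the larger number of serum-2i sites. The wt cells gave a separate reading of the same positions: 7.67% of the sites of serum-2i alone were also listed in serum-2i wt cells, against 1.66% of the sites of serum alone. In serum wt cells, with 8685 sites in all, the order was reversed, 0.177% against 0.910%. Sites of serum alone were themselves listed more often in serum-2i wt cells than in serum wt cells, which had far fewer sites. The wt lists also had other coverage minima, 4 in serum-2i and 3 in serum, against 6 in both Tdg groups.

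Gene starts separated the media. Within 0.25 kb of a protein-coding start lay 10790 serum sites and 5297 serum-2i sites, which is 2.96% and 0.794% of the sites (share of coverage -1.92 on the log2 scale, interval -1.93 to -1.91). This is the reverse of the whole table, where serum-2i had 1.84 times as many sites. From 0.25 to 1 kb the counts were 17740 in serum and 10527 in serum-2i (log2 ratio -1.68). The ratio then climbed without a break through -1.10 at 1 to 2 kb, -0.69 at 2 to 5 kb, -0.41 at 5 to 10 kb and -0.027 at 10 to 50 kb. On the scale of shared sites the ratios from 2 kb outward were above 0. Beyond 50 kb it was 0.62, and beyond 200 kb it was 0.97, where 82402 sites were listed in serum-2i and 24614 in serum. Distances were taken to 21019 protein-coding starts with a promoter window in the RefSeq table, and a gene can have several starts. That table does not hold every gene and holds none on chromosome 18.

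The pattern at the start depended on how many CGs the promoter held. At the 9938 starts with CG-rich promoters (15 or more CGs in the 300 bases) serum sites peaked at 277 per 1000 starts in the 250 bases upstream, against 86.2 per bin of that length 4 to 5 kb away. Serum-2i sites did the opposite there and dipped, to 45.8 per 1000 upstream and 26.6 downstream of the start, against 104 at 4 to 5 kb. At the 5243 starts of intermediate CG content both media peaked, with 513 upstream and 543 downstream in serum and 347 and 298 in serum-2i. At the 5838 CG-poor starts (under 5 CGs) both media also peaked, just downstream, at 114 in serum and 126 in serum-2i. A dip at the start in serum-2i was therefore seen at the CG-rich class and at neither of the other classes.

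**Figure D2:**
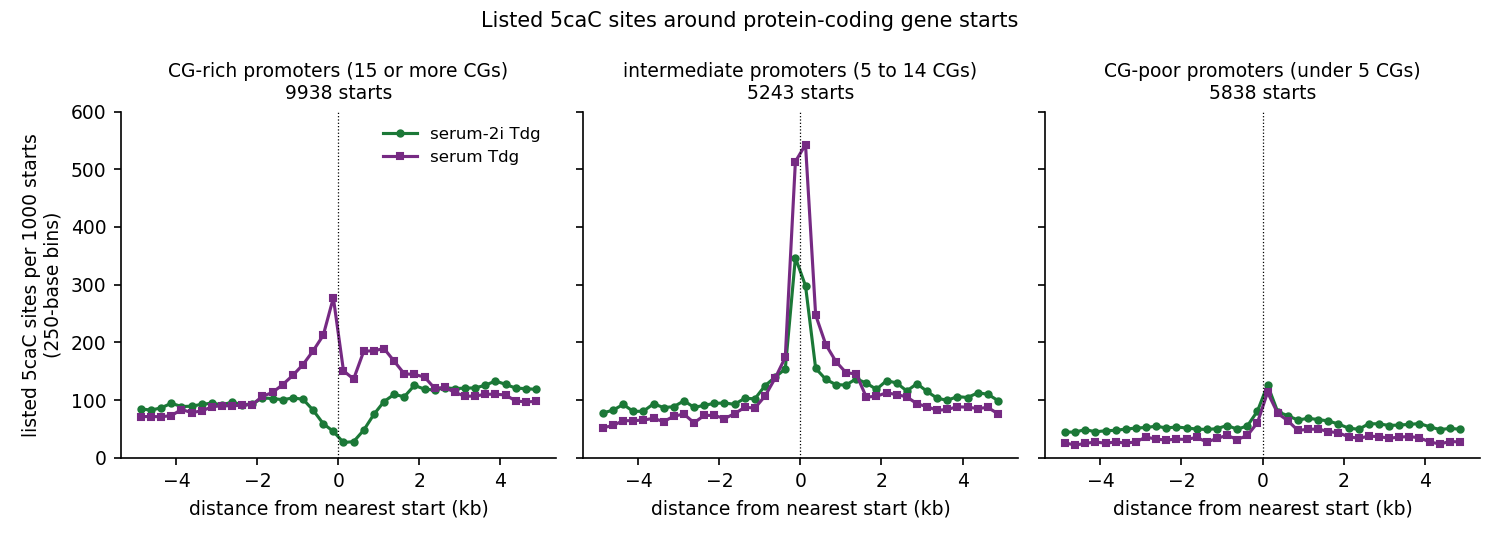
Listed sites per 1000 starts in bins of 250 bases (y axis) against distance from the nearest protein-coding start in kb (x axis, negative is upstream), in 3 panels by promoter CG content, for serum-2i Tdg and serum Tdg. At CG-rich starts serum peaks at 277 and serum-2i falls to 26.6, while both media peak in the other panels.

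Counted CG by CG, the order of the media in CG-rich promoters was the same. The serum peak did not carry over as a high share of CGs, since that share was lowest in the CG-rich class. CGs were not counted 4 to 5 kb away, so the peak and the dip there are per bin and not per CG. Of 268993 CGs in CG-rich promoter windows, 4018 (1.49%, exact 95% interval 1.45 to 1.54) were listed in serum and 761 (0.283%, 0.263 to 0.304) in serum-2i. In intermediate windows it was 5621 (8.04%) and 4556 (6.51%) of 69956 CGs. In CG-poor windows the order turned, with 932 (3.88%, 3.64 to 4.13) in serum and 1482 (6.17%, 5.87 to 6.48) in serum-2i of 24015 CGs. That is 1.59 times as many sites in serum-2i, still under the 1.84 times of the whole table. In wt cells, CG-rich windows held 0.783% of the serum sites (68 sites) and 0.0334% of the serum-2i sites (37 sites), against 1.07% and 0.110% in the Tdg groups. The wt lists had lower coverage minima than the Tdg lists. Within CG-rich windows the share listed in serum was highest 150 to 200 bases before the start (1.90%) and lowest in the last 50 bases before it (0.917%), and in serum-2i it stayed between 0.242% and 0.313%.

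The share of CGs listed varied with the bases beside the CG, with the same extremes in both media. Taken over all promoter windows and read on either strand, CGs in the context GCGC were listed least often, 0.251% in serum-2i and 0.472% in serum, and CGs in ACGG most often, 4.83% and 6.01%. In CG-rich windows every context had a lower share in serum-2i, from 0.0497% against 0.189% for GCGC to 0.778% against 3.42% for ACGG. In CG-poor windows every context had a higher share in serum-2i, up to 13.6% against 9.48% for CCGG. The contrast between the classes was therefore present in each of the 10 contexts. Contexts also differ in how many of their CGs lie in islands, and the part of the labelling enzyme's own preference in the order was not tested.

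By single promoters, 2362 of 32585 windows had a site in both media and enough coverage (a mean sum of at least 10). Over all of these, 1360 were lower in serum-2i (57.6%) and 217 were higher (9.19%), with a median log2 ratio of -1.37. A further 1221 windows had sites in serum alone and 599 in serum-2i alone. CG-rich windows had a median of -2.52, with 306 lower and 5 higher, and 655 in serum alone against 15 in serum-2i alone. CG-poor windows had a median of -0.61, with 168 lower and 52 higher, and 73 in serum alone against 226 in serum-2i alone. Scaled on the coverage at shared sites, the CG-poor median was 0.10 and so changed sign, while the CG-rich median was -1.81. On that scale 31.0% of the called windows were higher, against 13.8% on the main scale, and by number of sites 124 windows were lower and 0 higher.

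Gene spans gave a balanced count that hid the contrast between starts and bodies. Of 13379 protein-coding genes with a site in both media and enough coverage (a mean sum of at least 20), 3810 were higher in serum-2i (28.5%) and 3392 lower (25.4%), with a median of 0.088. Another 1019 genes had sites in serum-2i alone and 142 in serum alone. Scaled on shared sites, 75.7% of the called genes were higher in place of 52.9%, and by number of sites 39.7% were, so which direction is the more frequent depends on the scale. Taking only sites within 2 kb of a start, 6267 genes could be compared, and 3919 were lower and 520 higher with a median of -1.52.

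Length ordered the bodies but not the starts. Here and below, the rest of a span means its sites over 2 kb from any protein-coding start with a RefSeq promoter window. A gene without such a window, such as Pitx1, adds no sites near a start. Sites at its own start can then count in the rest. Sites within 2 kb of a start can also lie outside the span. Summed over the genes under 10 kb, the log2 ratio was -1.56 within 2 kb of the gene's own starts and -1.29 in the rest of the span. For genes of 10 to 30 kb the values were -1.47 and -0.53, for 30 to 100 kb -1.39 and -0.063, and for those over 100 kb -1.40 and 0.69. The share near the start was thus lower in serum-2i by a like amount in short and in long genes, while the ratio in the remainder of the span was larger at each step in length. The widest of these intervals, near the starts of genes over 100 kb, ran from -1.41 to -1.39, for counting error only.

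**Figure D3:**
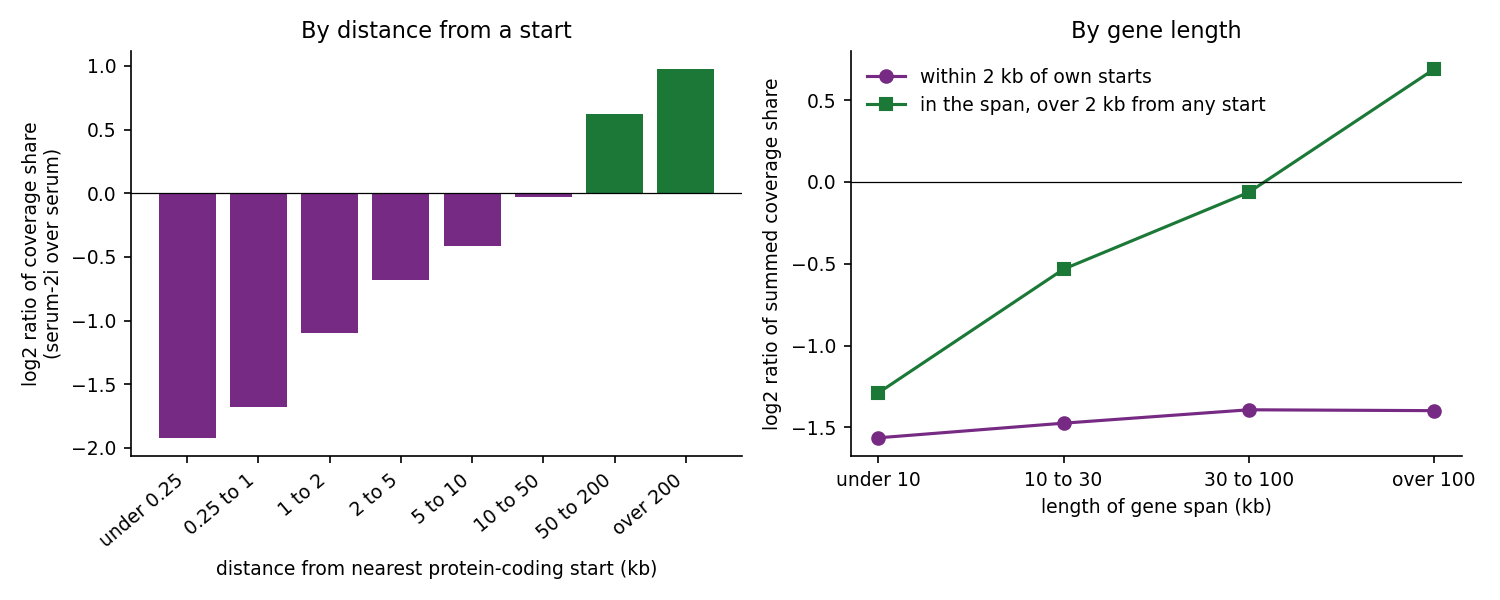
Log2 ratio of coverage share, serum-2i over serum (y axes). Left, for all sites by distance from the nearest protein-coding start in kb. Right, summed over genes by length in kb, for sites within 2 kb of the gene's own starts. The second line on the right is for sites of the span over 2 kb from any start with a promoter window. The left bars go from -1.92 to 0.97, and on the right the sites near starts stay between -1.56 and -1.39.

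Windows of fixed length, which have no bias from span, followed the number of starts they held. Of 15562 windows of 100 kb, 6855 were higher (44%) and 1523 lower (9.79%), with a median of 0.76. Scaled on shared sites, 94.9% of the called windows were higher in place of 81.8%. Starts were counted from the promoter windows of the RefSeq table, so a gene without such a window adds none. Windows on chromosome 18 were left out of these classes. The 7048 windows without a counted protein-coding start had a median of 1.49 and 62.6% of them were higher. With 1 start the median was 0.47, with 2 to 4 starts 0.06, and with 5 or more -0.55, where 11.2% were higher and 30.7% lower. A further 3153 windows had sites in serum-2i alone against 13 in serum alone.

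Among windows with at least 20 sites in each medium, the lowest ratios were at loci of developmental regulators. The window at chr13:72600001-72700000 with Irx2, an Iroquois homeobox factor, had 23 sites in serum-2i and 98 in serum (-3.68). The window at chr17:85600001-85700000 with Six3 and Six2, homeobox factors of eye and kidney, had 77 and 343 (-3.66). The window at chr9:91300001-91400000 with Zic1 and Zic4, zinc-finger factors of the cerebellum, had 21 and 122 (-3.62). Next came chr2:74600001-74700000 with Evx2 and the genes Hoxd13 to Hoxd9, with 57 and 298 (-3.56). All 4 of these windows held genes of developmental transcription factors.

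The 5 highest windows were chr4:48600001-48700000 with Tmeff1 and Cavin4 (156 serum-2i sites against 28 serum sites, 2.50), chr5:116300001-116400000 with no protein-coding span (116 and 20, 2.42), chr13:95600001-95700000 with the thrombin receptor genes F2r and F2rl2 and with Iqgap2 (134 and 21, 2.22), chr5:73100001-73200000 with Fryl (147 and 22, 2.22), and chr6:52400001-52500000 likewise with none (129 and 23, 2.05).

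Single genes were ranked among the 5356 with at least 10 sites in each medium, whose median was -0.27. The 12 highest were long, with a median span of 657 kb, against 15.0 kb for the 12 lowest. Smyd3, a lysine methyltransferase, had 393 sites in serum-2i and 22 in serum, with summed coverages of 7696 and 354 (log2 ratio 3.72, interval 3.61 to 3.83). Robo1, an axon guidance receptor, had 178 and 12 sites (3.61, 3.45 to 3.78). Gpd2, the mitochondrial glycerol-3-phosphate dehydrogenase, had 121 and 10 (3.36). Cdkal1, which encodes a tRNA-modifying enzyme, had 197 and 17 (3.18). Within 2 kb of their own starts Robo1 and Cdkal1 had 0 sites in either medium. Spock1 had 2 in serum-2i and 5 in serum there, Pdia5 2 and 5, and Ctnna3 1 and 4. Others went the other way, with 2 in serum-2i and 1 in serum at Cntnap2, 2 and 1 at Adamts9, and 1 and 0 at Gpd2. The starts of Smyd3, Tmem132d, Cdh13 and Adamtsl1 were not analysed here. Cell adhesion genes were among the others, namely Cntnap2 with 89 and 13 sites (3.11), the cadherin Cdh13 with 450 and 45 (3.07) and the catenin Ctnna3 with 145 and 15 (3.05). The list closed with the proteoglycan gene Spock1 (147 and 15, 3.17), the disulfide isomerase gene Pdia5 (107 and 13, 3.06) and the matrix protease gene Adamts9 (127 and 15, 3.03). The ADAMTS-like gene Adamtsl1 (133 and 14, 3.02) and Tmem132d (238 and 20, 3.31) also belonged to it.

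The 12 lowest were short, and most encode transcription factors. Wnt10a, a WNT ligand, had 11 sites in serum-2i and 85 in serum, with summed coverages of 151 and 2386 (-4.70, interval -4.88 to -4.54). Skor1, a transcriptional corepressor, had 10 and 63 (-4.39), and Pitx1, a homeobox factor of the hindlimb, 10 and 79 (-4.06). Prdm8 had 11 and 83 (-4.01), of which 4 and 38 lay within 2 kb of its starts. Lhx2, a LIM homeobox factor of the forebrain and eye, had 25 and 139 (-3.98). The others were Erfl (11 and 54, -4.04), Alx4 (15 and 92, -3.95), Hoxd10 (11 and 63, -3.87), the cortical T-box factor Tbr1 (10 and 50, -3.86), Nxph4 (13 and 54, -3.86), Six2 (14 and 68, -3.83) and Lrrc4b (13 and 53, -3.81). Mean coverage per site was lower in serum-2i at all 12, for example 13.7 against 28.1 at Wnt10a, while at all 12 highest genes it was higher in serum-2i, for example 19.6 against 16.1 at Smyd3. The ranking by summed coverage favours such agreement, so it is a description only.

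**Figure D4:**
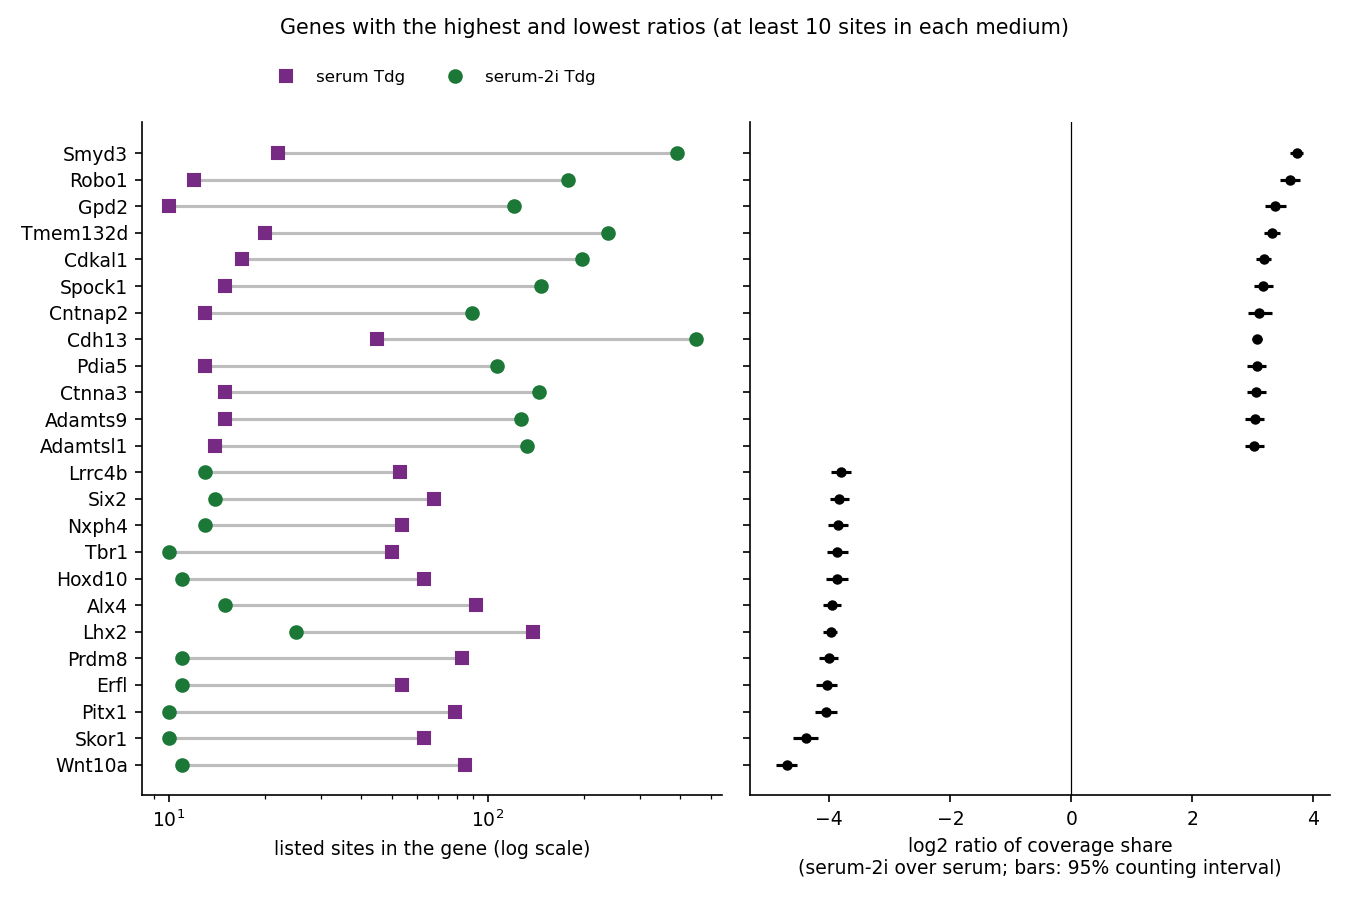
Left, listed sites in each gene in serum Tdg and serum-2i Tdg (x axis, log scale); right, log2 ratio of coverage share with its 95% counting interval, for the 12 highest and 12 lowest genes with at least 10 sites in each medium. Smyd3 leads at 3.72 and Wnt10a is last at -4.70.

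Among genes listed in 1 medium alone, those with most sites differed in kind. In serum-2i alone they were BC052040 (60 sites), Egfem1 (58), the glycosyltransferase gene Galnt18 (41), the ubiquitin ligase gene Cblb (33), the Integrator subunit gene Ints9 (33) and Arhgap25 (30), with spans from 74.7 kb (Arhgap25) to 609 kb (Egfem1). In serum alone they were the neural homeobox gene Barhl2 (26), Ankrd34a (19), the synaptic gene C1ql2 (17), the forkhead gene Foxl1 (16), Tmem102 (16) and Mos (15), a kinase of oocyte meiosis, and none of their spans passed the 5.64 kb of Barhl2. The other medium's value at these genes is unknown, so no ratio is given.

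The gene groups below hold 943 symbols in 27 lists, and some genes stand in more than 1 list. Counts are of members with a site in both media and enough coverage, to be read against 28.5% higher and 25.4% lower over all protein-coding genes. These shares change with span length. Of 2633 comparable genes under 10 kb, 306 were higher and 1433 lower, and of 2218 over 100 kb, 1143 were higher and 78 lower. Hox genes order the body axis. All 37 comparable Hox genes were lower, with a median of -3.44, and Hoxc11 (12 sites) and Hoxd8 (9) were listed in serum alone. The lowest were Hoxb9 (1 site in serum-2i and 14 in serum, -6.05) and Hoxd11 (3 and 48, -5.65), and the least low were Hoxb13 (11 and 26, -2.09) and Hoxc8 (9 and 20, -2.27). Hox genes lie in 4 clusters with overlapping spans, so they are not independent of each other. Together they had 481 sites in serum-2i at a mean coverage of 16.3 and 1848 in serum at 26.0.

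Homeobox genes outside the Hox clusters had 57 of 61 lower and 0 higher, with a median of -3.59. Lhx1, a factor of head and kidney development, had 3 sites in serum-2i and 53 in serum (-5.37). The members nearest to equality were Meis1 (76 and 51, -0.48) and Meis2 (90 and 83, -0.39), whose products are partners of HOX proteins. Of the forkhead, GATA, SOX, PAX and T-box factors 31 of 36 were lower and 1 was higher, with a median of -2.23 and 10 more listed in serum alone. Tbx2 had 6 and 58 (-5.20) and Tbx1, a factor of the pharyngeal arches, 7 and 76 (-4.88), while Sox5, a long gene of cartilage and neural development, was the member that was higher (216 and 34, 2.13). Basic helix-loop-helix lineage factors had 20 of 22 lower and 0 higher (median -3.58). The muscle determination gene Myod1 had 2 and 20 (-5.06) and Mesp1, of early mesoderm, 1 and 5 (-4.57). In each of these 4 lists the sites near starts had a ratio between -2.46 (basic helix-loop-helix) and -3.58 (homeobox genes outside Hox), and the rest of the spans one between -1.83 and -3.28. These genes are short, with median spans from 2.84 to 8.07 kb. The rest of the spans of all genes under 10 kb was also lower (-1.29). Members without a promoter window can have the sites at their own starts counted in the rest, and the 39 Hox genes had 24 such windows.

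Among chromatin complexes, Polycomb subunits had 16 of 32 lower and 5 higher (median -0.80, which was -0.092 when scaled on shared sites). Cbx8 had 2 sites in serum-2i and 33 in serum (-5.77) and Pcgf6, a subunit of a variant PRC1, 2 and 10 (-4.11). The PRC2 core subunit gene Suz12 was higher with 12 and 1 (2.40), as was the histone chaperone gene Rbbp7 with 3 and 1 (2.21). Subunits of the Trithorax, BAF and NuRD complexes had 8 of 37 lower and 9 higher (median 0.15, which was -0.086 with sites of coverage 20 or more). The BAF subunit gene Smarcd3 had 18 and 45 (-2.81) and the menin gene Men1 5 and 14 (-2.65), while Ash2l (26 and 6, 1.95) and Smarce1 (15 and 3, 2.01) were higher.

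**Figure D5:**
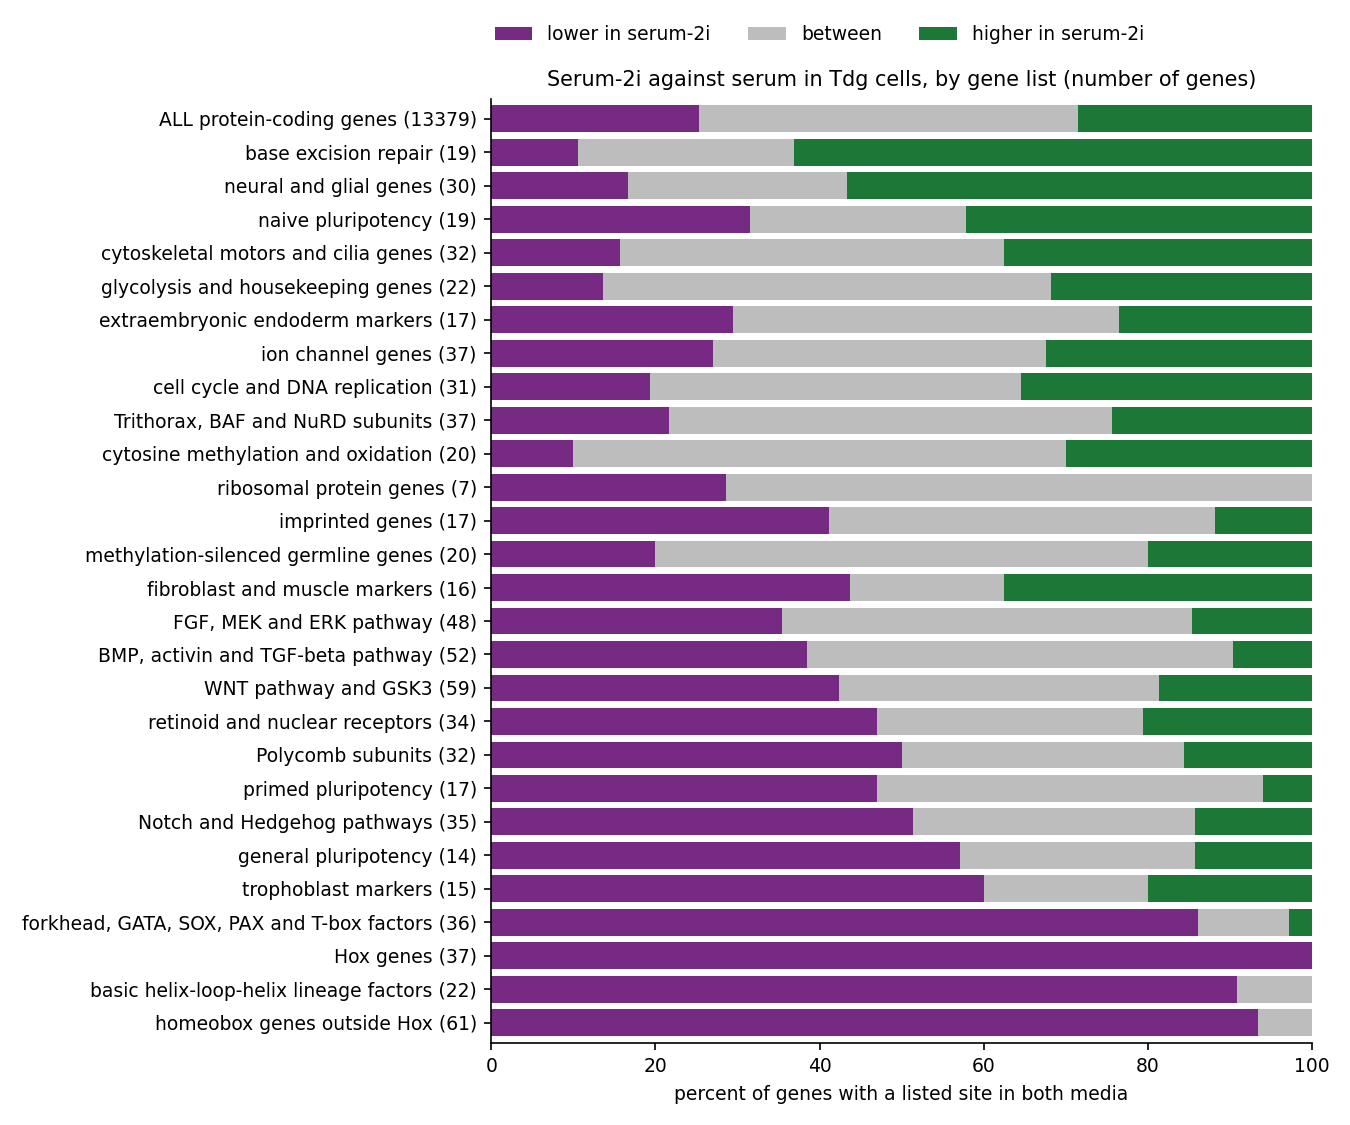
Percent of each list's comparable genes (number in brackets) that were lower, between or higher in serum-2i (x axis), with all protein-coding genes in the top bar and the lists in order of their median log2 ratio. The Hox bar is wholly lower, and base excision repair genes have the highest median, 1.28.

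The genes for enzymes that write, oxidise and clear modified cytosine were mixed at the upstream steps. At the repair step most spans were higher, by an amount that depended on the measure. Genes of cytosine methylation and oxidation had 6 of 20 higher and 2 lower, with a median of -0.0064 that was 0.71 when scaled on shared sites. Zbtb4, which encodes a methyl-CG binding protein, had 29 sites in serum-2i and 38 in serum (-1.74), and Tet3 65 and 84 (-1.40). Uhrf2, a relative of the maintenance factor UHRF1, had 18 and 1 (4.13). Mettl14, a list member that encodes a subunit of an RNA adenosine methyltransferase and no cytosine enzyme, had 17 and 2 (2.43). Base excision repair genes had 12 of 19 higher and 2 lower (median 1.28). That median was 0.53 by number of sites and 1.99 when scaled on shared sites, and the ratio summed over the list was 0.41. The adenine glycosylase gene Mutyh had 12 and 2 (2.94, interval 2.44 to 3.49) and the oxoguanine glycosylase gene Ogg1 6 and 1 (2.82), whereas Gadd45b, a damage-response gene linked to demethylation, had 1 and 6 (-4.34) and the uracil glycosylase gene Smug1 12 and 24 (-1.64). Tdg itself had 8 and 3 sites (1.57). Near their starts the repair genes had 40 sites in either medium and a ratio of -0.67, so the higher values came from the rest of their spans (236 and 111 sites, 0.46 summed). Several of these ratios rest on 1 or 2 sites in serum.

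The targets of the inhibitors stood on the same side. Gsk3b, which encodes the GSK3 isoform beta, had 92 sites in serum-2i and 9 in serum (2.47), and Gsk3a had 1 and 1, below the coverage needed. Map2k1, for MEK1, had 70 and 12 (1.73) and Map2k2, for MEK2, 12 and 2 (1.91). Their pathways did not follow them as groups. WNT pathway genes had 25 of 59 lower and 11 higher (median -0.80), from the ligand genes Wnt10a (-4.70) and Wnt1 (3 and 30, -4.64) to the antagonist genes Sfrp4 (10 and 1, 2.78) and Dkk2 (12 and 1, 3.93). FGF, MEK and ERK pathway genes had 17 of 48 lower and 7 higher (median -0.55, which was 0.17 when scaled on shared sites). The immediate early factor gene Egr2 had 2 and 19 (-4.08) and the growth factor gene Fgf8 12 and 40 (-3.65), and Egr3 (8 sites), Fosb (11) and the feedback inhibitor gene Spry2 (5) were listed in serum alone, and the factor gene Etv1 (15) and the growth factor genes Fgf10 (12) and Fgf7 (5) in serum-2i alone. The phosphatase gene Ptpn11 (44 and 9, 1.91) and the adaptor gene Frs2 (50 and 9, 2.04) of the same pathway were higher. Near their starts WNT genes had 145 sites in serum-2i and 420 in serum (-2.51) and FGF to ERK genes 82 and 185 (-1.99).

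Other signalling lists leaned the same way. BMP, activin and TGF-beta genes had 20 of 52 lower and 5 higher, with a median of -0.56 that was 0.15 when scaled on shared sites. The ligand genes Gdf6 (3 and 22, -4.17) and Bmp2 (2 and 12, -4.07) were lowest, and the ligand gene Bmp5 (4 and 1, 2.12) and the receptor gene Tgfbr2 (31 and 6, 1.88) highest. Notch and Hedgehog genes had 18 of 35 lower and 5 higher (median -1.01). Shh, the Hedgehog ligand of limb and neural tube, had 6 and 68 (-4.88), and the Notch target gene Hey1 1 and 10 (-4.55), while Gli3, a Hedgehog effector, had 41 and 6 (2.04). Retinoid and nuclear receptor genes had 16 of 34 lower and 7 higher (median -0.80), from Nr2f2 (8 and 52, -4.04) and Nr4a2 (7 and 35, -3.51) to the retinoic acid receptor gene Rarb (48 and 8, 2.15) and Ppara (28 and 4, 2.58).

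Pluripotency genes were spread widely inside each list, and no difference between the lists was tested. Naive genes had 8 of 19 higher and 6 lower, with a median of 0.88 that was 0.12 by number of sites. Dppa4 had 12 sites in serum-2i and 1 in serum (3.54), and Dppa2 17 and 2 (2.99). The lowest naive members were Tbx3 (-6.17) and Klf4 (-2.71). Klf2 (5 sites) and Socs3 (6), a STAT3 target, were listed in serum alone. Primed genes had 8 of 17 lower and 1 higher (median -0.94), with Zic2 (2 and 12, -4.19) and Car14 (6 and 19, -2.76) lowest. Cdh2 was the primed member that was higher (1.88), and Foxp1 (384 and 135) stood between at 0.51. General pluripotency genes had 8 of 14 lower and 2 higher (median -1.18), and Foxd3 (2 sites) was listed in serum alone. Lefty2 (-3.64) and Lefty1 (-2.33) were lowest in that list, and Rif1 (3.09) and Tdgf1 (1.43) were the 2 that were higher. Near starts naive genes had 45 and 108 sites (-2.33), general genes 15 and 36 (-2.42) and primed genes 80 and 122 (-1.49). The naive list was thus lower near starts like the others, while the rest of its spans stood at 0.28.

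Markers of other cell types describe loci here and not expression, since DNA of whole cultures was measured. Neural and glial genes, which are long (median span 308 kb), had 17 of 30 higher and 5 lower (median 1.19). The synaptic adhesion gene Nrxn3 had 49 sites in serum-2i and 2 in serum (4.15) and Cntn4 38 and 2 (3.75), while the receptor subunit gene Grin1 had 10 and 31 (-2.90). Near their starts the same list had 57 and 77 sites (-1.23). Fibroblast and muscle markers had 6 of 16 higher and 7 lower, with a median of -0.50 that was 0.22 when scaled on shared sites. The very long muscle genes Dmd (31 and 1, 5.17) and Ttn (151 and 8, 3.69) were highest, and the smooth muscle gene Tagln (1 and 7, -4.38) lowest. Trophoblast markers had 9 of 15 lower and 3 higher (median -1.47), from Hand1 (5 and 46, -4.43) to the placental gene Plac1 on chromosome X (19 and 1, 4.01). Extraembryonic endoderm markers had 5 of 17 lower and 4 higher (median 0.32), from Sox17 (2 and 14, -3.80) to the vitamin B12 receptor gene Cubn (15 and 2, 2.54).

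Germline genes that are silenced by promoter methylation had more listed promoter CGs than any other of the 27 lists, in both media. Their 29 promoter windows, 21 of them CG-rich, held 66 listed CGs in serum-2i and 76 in serum of 532. Homeobox genes outside Hox had 3 and 59 in 54 windows, and WNT genes 6 and 29 in 50. As spans, the germline genes had 4 of 20 higher and 4 lower (median -0.29, which was 0.43 when scaled on shared sites and 0.51 with sites of coverage 20 or more). Stk31 had 12 sites in serum-2i and 2 in serum (2.57), and Tex19.1, known for a role in silencing transposons in germ cells, 1 and 2 (-3.12). Sites within 2 kb of their starts numbered 105 and 106, a ratio of -0.85. Imprinted genes had 2 of 17 higher and 7 lower (median -0.25, which was 0.46 when scaled on shared sites), with Dio3 (1 and 17, -6.18) and Dlk1 (3 and 24, -3.88) lowest and Snrpn (8 and 1, 3.27) and Rtl1 (13 and 1, 2.93) highest.

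Genes of general cell functions were closer to the whole set, with span length left aside. Cell cycle and replication genes had 11 of 31 higher and 6 lower (median 0.21, and -0.30 with sites of coverage 20 or more). The helicase subunit gene Mcm3 had 14 sites in serum-2i and 1 in serum (4.21), and the inhibitor genes Cdkn2b (4 and 21, -4.32) and Cdkn2a (14 and 63, -3.26) were lowest. Glycolysis and housekeeping genes had 7 of 22 higher and 3 lower (median 0.37, and -0.0044 by number of sites), from Aldoc (1 and 4, -4.15) to Hk2, the hexokinase, with 101 and 26 (1.84). Genes of cytoskeletal motors and cilia had 12 of 32 higher and 5 lower (median 0.68), with the dynein genes Dnah3 (21 and 1, 4.73) and Dync1h1 (64 and 9, 2.40) highest. Ion channel genes had 12 of 37 higher and 10 lower (median 0.25), with Kcnip4 (56 and 1, 6.01) and Trpm3 (159 and 19, 2.94) highest and Trpc1 (1 and 4, -4.16) lowest. Their median span was 222 kb, and all comparable genes over 100 kb had 1143 of 2218 higher and 78 lower. Of 51 ribosomal protein genes 33 had no listed site in either medium, and of 7 comparable genes 2 were lower and 0 higher (median -0.12, which was 0.59 when scaled on shared sites). Across the 27 lists, the summed ratio near starts was below 0 in every one, from -0.67 for base excision repair genes to -3.58 for homeobox genes outside Hox (on the scale of shared sites it was above 0 for base excision repair), while the median over spans ran from -3.59 to 1.28.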

How the data were processed

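The labels' protocols describe blocking of hydroxymethylated and unmodified CGs, decarboxylation and azide tagging of 5caC by an engineered SssI methyltransferase, biotin enrichment, priming at the tag and Ion Proton sequencing. Positions are on mm10, a build named in the submitters' processing notes. The sources used here name no aligner and no caller. A table that the authors deposited gives a coverage signal per CG and group. Its values are multiples of 0.5 and were read as means of 2 technical replicates. With 1 value per group, the planned count models could not be run.

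Table positions count from 0: with 1 added, all 15297 listed positions inside RefSeq promoter windows fall on a CG, and coordinates are printed that way. Positions were assigned to protein-coding spans, 100 kb windows and promoter windows of the RefSeq tables (GRCm38.p6). Genes and windows needed a mean summed coverage of 20 over both groups, promoters 10. A site in overlapping spans counted for each. Log2 ratios of shares and exact Clopper-Pearson intervals were computed with Python 3.11.15, numpy 2.4.6, pandas 2.3.3 and scipy 1.17.1, and figures drawn with matplotlib 3.10.9. The procedure was run on simulated independent counts. These lack the dependence between reads and CGs described above, so the run cannot show how wide the intervals should be here.

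The comparison, its gene lists and its rules were chosen with earlier results of these data known. Named genes are the 12 highest and 12 lowest ratios among genes with at least 10 sites in each medium and without predicted symbols, the 6 with most sites in 1 medium alone, the 2 highest and 2 lowest of each list with the inhibitor targets and Tdg, the 5 highest and 5 lowest windows with at least 20 sites in each medium, and the 6 promoters with most sites in each medium. Of the 5 lowest windows, 1 is not reported here. List members at the extremes are named in part, and members listed in 1 medium alone or standing between were named after their values were seen. In the imprinted list, 24 of 32 symbols were found as protein-coding genes.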

Additional observations from a re-analysis of the deposited data

How the results depend on the processing

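No paired analysis was possible because the table gives 1 value per group and none per replicate, so leaving out a replicate could not be done either. Depth is known only as listed coverage. Scaled on coverage at shared sites, 6029 genes were higher and 1933 lower, 521 windows were lower, 449 promoters were higher, and the medians were -1.81 (CG-rich promoters), 0.10 (CG-poor promoters, a change of sign), 0.0427 (shared sites, a change of sign) and 0.15 (BMP, activin and TGF-beta list, a change of sign). Centred on the median gene, the shared-site median was -0.76. By number of sites, 1365 genes were higher and 2073 lower, 3188 windows were higher, 0 promoters were higher and 124 lower, and the promoter medians were -1.88 (CG-rich) and -0.88 (CG-poor). With sites of coverage 10 or more, the medians were -2.25 (CG-rich promoters) and -0.68 (shared sites). With 20 or more, 2285 genes were higher, 3774 windows were higher, 33 promoters were higher and 334 lower, and the medians were -1.72 (CG-rich promoters) and -0.59 (shared sites). With the stricter feature minimum (promoters 50), 75 promoters were higher and 553 lower, and the promoter medians were -2.89 (CG-rich) and -1.06 (CG-poor). With site coverage capped, the shared-site median was -0.68. The causes of these shifts were not tested. Over all 8 alternatives, the medians of 11 of 27 lists stayed below 0, those of 6 stayed above 0 and those of 10 changed sign. Of 135 single genes followed, 108 kept their call by number of sites and 27 lost it without a change of sign. With sites of coverage 20 or more, 65 kept it, and most of the rest could no longer be compared. Many ratios named in the lists rest on 1 or 2 sites in 1 medium.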

Other observations

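Whole chromosomes differed little beside the contrast at gene starts. The ratio of site numbers, serum-2i over serum, ran from 1.501 on chromosome 11 (51193 and 34095 sites) to 2.52 on chromosome 13 (30900 and 12240). In log2 share of coverage these were -0.34 and 0.54, the lowest and highest of the 19 autosomes. Chromosome X, with 5728 sites in serum-2i and 2785 in serum, lay inside that range at a site ratio of 2.06. These values are descriptions of 1 table and were not tested.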
